A study of Mus musculus with 56 samples.

Results

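Hearts taken 8 h into the daily feeding window, but at opposite phases of the light cycle, were compared. They were 4 libraries from mice on daytime-restricted feeding (DRF) at zeitgeber time 8 (ZT8, hours after lights on) and 4 from mice on nighttime-restricted feeding (NRF) at ZT20. The 8 libraries were chosen by the regimen and ZT in their labels, out of 56 heart libraries in 14 groups, and the description covers 22864 listed genes. All mice were adult female C57BL/6J animals, an inbred strain, aged 9 weeks, on a cycle of 12 h light and 12 h dark. After a period of free feeding for entrainment they had food for 7 days in the light phase alone (DRF) or in the dark phase alone (NRF, the control regimen, since mice eat mostly at night). The labels name no altered allele and no drug in either group. They number the replicates without saying whether each was 1 animal, so the p-values measure the spread between libraries. Unless said otherwise, the gene-level p-values used a spread estimated over all 14 groups, not over the 8 libraries alone.

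The heart holds a circadian clock of its own. BMAL1 (encoded by Arntl) and CLOCK switch on the Per and Cry genes, whose products switch them off again, and the nuclear receptors REV-ERB (Nr1d1, Nr1d2) and ROR time the expression of Arntl, while DBP, TEF, HLF and their antagonist NFIL3 carry the rhythm to further genes. Feeding and fasting act on the heart as well, through insulin, circulating fatty acids and the nuclear receptor PPARα, which induces the genes of fatty acid oxidation, the main fuel supply of this organ. In this pair the time since food became available was the same and the light phase was not, so the comparison asks which transcripts differed when feeding was matched. The regimen differed together with the light phase, DRF in the light and NRF in the dark, and within the pair these cannot be told apart.

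Of the listed genes, 13878 had a mean of at least 1 TPM (a level per exon length, relative to the whole library) over all libraries and were tested. The 4 DRF ZT8 libraries held 34.6 to 45.8 M recovered reads and the 4 NRF ZT20 libraries 34.6 to 40.6 M. Reads came from PCR-amplified libraries without molecular identifiers. The cardiomyocyte markers (8 of 8 tested, among them Myh6 and Tnnt2) summed to 29097 to 31298 TPM in DRF ZT8 and 29437 to 32256 TPM in NRF ZT20, and the fast skeletal myosin genes Myh1, Myh2 and Myh4 were not among the listed genes. Over the 1000 genes that varied most in the other groups, 4 of the 8 libraries correlated best with the remaining libraries of their own group. DRF ZT8 replicates 1 and 2 lay nearest to NRF ZT8, NRF ZT20 replicate 1 to NRF ZT16 and replicate 4 to DRF ZT16, which are groups of the same light phase.

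The makeup of the libraries moved with the comparison in 4 of 15 measures whose values did not overlap. Reads of mitochondrially encoded genes made up 21.8% ± 0.81 (SD, n = 4) in DRF ZT8 and 20.1% ± 0.466 in NRF ZT20, and the 10 most abundant genes held 24.3% ± 0.842 and 22.3% ± 0.443 of the reads. The summed level of 6 endothelial markers was 459 to 575 TPM in DRF ZT8 and 581 to 661 TPM in NRF ZT20, and that of 6 macrophage markers was 359 to 444 and 498 to 583 TPM. Each of these 4 gave p = 0.0286 in a two-sided exact permutation test, the smallest p that 4 against 4 allows, and an adjusted p of 0.107 over the 15 measures. In these bulk samples fewer cells of a type and less RNA per cell cannot be told apart. No single marker of the endothelial, macrophage, fibroblast, smooth muscle, cardiomyocyte or atrial lists passed the gene-level test, no tested marker was at 0 in all 8 libraries, and Dbh, a noradrenaline synthesis enzyme of sympathetic nerves, was the only marker called (log2 difference 0.64, adjusted p = 0.0187 by limma). Blood differed widely within both groups, with hemoglobin and other erythroid transcripts at 4876 to 26549 TPM in DRF ZT8 and 2876 to 40462 TPM in NRF ZT20. Among the most abundant called genes were the mitochondrial ribosomal RNA mt-Rnr2 (-0.74, adjusted p = 0.00718) and the mitochondrial transfer RNAs mt-Tc and mt-Tl1 (-0.55 and -0.66). The part of these differences in the results below was not tested.

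Between food-matched hearts in opposite light phases, 769 of 13878 genes differed at an adjusted p under 0.05 by limma (percent called 5.54). Of these, 361 were higher in DRF ZT8 (2.6%) and 408 lower (2.94%), and 2834 genes had an unadjusted p under 0.05. Called genes moved by a median of 0.405 in absolute log2 (quartiles 0.315 and 0.560), while the median standard error over all genes was 0.10. By at least 1 on the log2(TPM + 1) scale, 11 called genes were higher (0.0793%) and 20 lower (0.144%). The largest rises were in the clock genes Nr1d1 and Dbp and in Cyp1a1, a cytochrome P450 induced by the aryl hydrocarbon receptor, and the falls of at least 1 included Cry1, Nfil3 and Arntl. The 4 values of each group did not overlap in 2547 tested genes (18.4%) and in 728 of the 769 called. The count fell to 394 genes without NRF ZT20 replicate 1, 435 without DRF ZT8 replicate 2, 452 without DRF ZT8 replicate 1, 458 without NRF ZT20 replicate 3 and 479 without DRF ZT8 replicate 3. Scaling without the mitochondrially encoded genes moved the share of calls that were higher from 46.9% of 769 to 71.1% of 1040, with the median over all genes at 0.04 instead of -0.02, so the balance of small rises and falls depended on scaling. Called genes were protein-coding in 703 cases (5.82% of 12085 tested), long noncoding RNAs in 41 (6.25% of 656) and pseudogenes in 12 (1.58% of 760). Above a mean of 100 TPM, 15 of 919 tested genes were higher and 40 lower (5.98% called), and below 5 TPM 117 of 4537 were higher and 71 lower (4.14% called), a split not recomputed under other scalings.

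**Figure D1:**
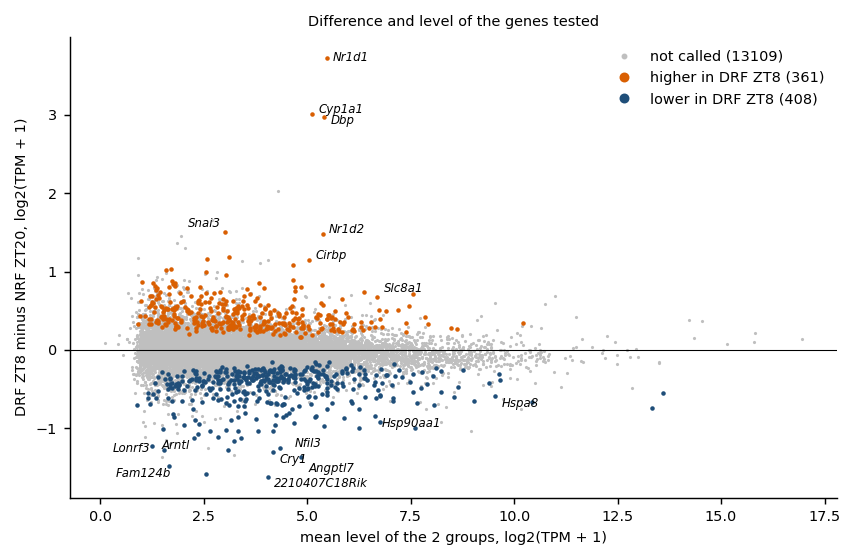
Each point is 1 of the 13878 tested genes, with the mean level of both groups on the x axis (log2(TPM + 1)) and the difference DRF ZT8 minus NRF ZT20 on the y axis (same scale). Orange marks the 361 genes called higher and blue the 408 called lower. Nr1d1, Cyp1a1 and Dbp stand apart at differences of about 3 or more, and most called genes lie within 1 of zero.

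Clock genes were among the largest differences, with Nr1d1 the largest rise of all tested genes. Of the 14 core clock genes, 3 were higher in DRF ZT8 (Nr1d1, Nr1d2, Per3) and 2 lower (Cry1, Arntl), and of the 6 clock output genes 3 were higher (Dbp, Tef, Hlf) and 1 lower (Nfil3). That is 9 of 20 genes called, where 5.54% of all tested genes were. Nr1d1, which encodes the repressor REV-ERBα, was at 89.04, 81.5, 79.3 and 75.8 TPM in the DRF ZT8 libraries and 5.05, 5.37, 4.896 and 5.58 TPM in the NRF ZT20 libraries. All 4 DRF ZT8 libraries lay far above all 4 NRF ZT20 libraries, a 15.6-fold ratio of means, and the log2 difference was 3.73 ± 0.27 (SE, adjusted p = 1.57e-13). Dbp, a PAR-domain transcription factor driven directly by BMAL1 and CLOCK, was at 76.5, 67.02, 77.7 and 77.9 TPM in the DRF ZT8 libraries and 9.47, 7.38, 11.3 and 6.99 TPM in the NRF ZT20 libraries. The groups were again fully apart (8.53-fold, log2 difference 2.97 ± 0.42 SE, adjusted p = 9.83e-06). Nr1d2, which encodes the related repressor REV-ERBβ, averaged 60.2 ± 3.995 TPM (SD, n = 4) in DRF ZT8 and 21.2 ± 4.12 TPM in NRF ZT20, a log2 difference of 1.48 ± 0.19 (SE, adjusted p = 1.31e-06). Nr1d1 overlaps the end of Thra and Dbp the end of Sphk2 on the opposite strand, and the libraries were unstranded, so reads in the overlaps cannot be assigned. Thra and Sphk2 themselves differed by 0.24 and -0.12 on the log2 scale.

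The clock genes that fell were Cry1, Nfil3 and Arntl. Cry1, a late repressor of BMAL1 and CLOCK, was at 9.04, 8.86, 9.87 and 10.3 TPM in the DRF ZT8 libraries and 24.8, 25.7, 25.04 and 23.99 TPM in the NRF ZT20 libraries. NRF ZT20 libraries were 2.62-fold higher with less than 2 TPM of spread in either group, and the log2 difference was -1.301 ± 0.16 (SE, adjusted p = 5.31e-07). Nfil3, the repressor that binds the same DNA element as DBP, was at 10.4, 12.04, 11.4 and 10.6 TPM in the DRF ZT8 libraries and 27.4, 30.2, 27.6 and 25.6 TPM in the NRF ZT20 libraries, a log2 difference of -1.246 ± 0.25 (SE, adjusted p = 0.00123). Arntl, which encodes BMAL1 itself, was at 2.89, 2.48, 1.101 and 1.85 TPM in the DRF ZT8 libraries and 5.03, 6.77, 4.695 and 5.87 TPM in the NRF ZT20 libraries. The groups did not overlap, and the difference was -1.12 ± 0.23 (SE, adjusted p = 0.00194).

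Per3, a period gene, averaged 9.71 ± 0.555 TPM in DRF ZT8 and 4.62 ± 1.13 TPM in NRF ZT20 (log2 difference 0.95 ± 0.18 SE, adjusted p = 0.000787). The PAR-domain factors Tef and Hlf rose less than Dbp, by 0.65 ± 0.16 (SE, adjusted p = 0.00953) and 0.57 ± 0.15 (SE, adjusted p = 0.0134), and without DRF ZT8 replicate 3 their adjusted p values were 0.0527 and 0.0687. Per1 was at 20.3, 14.03, 28.3 and 24.7 TPM in the DRF ZT8 libraries and 7.93, 7.23, 9.26 and 12.4 TPM in the NRF ZT20 libraries. Its groups did not overlap, but its difference of 1.14 ± 0.36 missed the threshold (adjusted p = 0.0511) and passed it in 9 of 17 alternative fits. Per2 ranged from 5.82 to 11.7 TPM in DRF ZT8 and from 7.73 to 11.9 TPM in NRF ZT20, with a 95% interval of the difference of -0.68 to 0.27. Clock, Npas2, Cry2, Rora, Bhlhe40, Bhlhe41 and Ciart, and the output genes Usp2 and Wee1, did not pass the test either, with log2 differences from -0.48 (Wee1) to 0.53 (Ciart). Fitted on only the libraries of the groups compared, Clock, Bhlhe40, Bhlhe41 and Wee1 did pass (limma adjusted p = 0.047, 0.00707, 0.0193 and 0.0419). Over all alternatives 5 to 9 core clock genes and 2 to 5 output genes were called. The medians were 0.26 over the core clock list and 0.33 over the output list, against -0.02 over all tested genes.

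**Figure D2:**
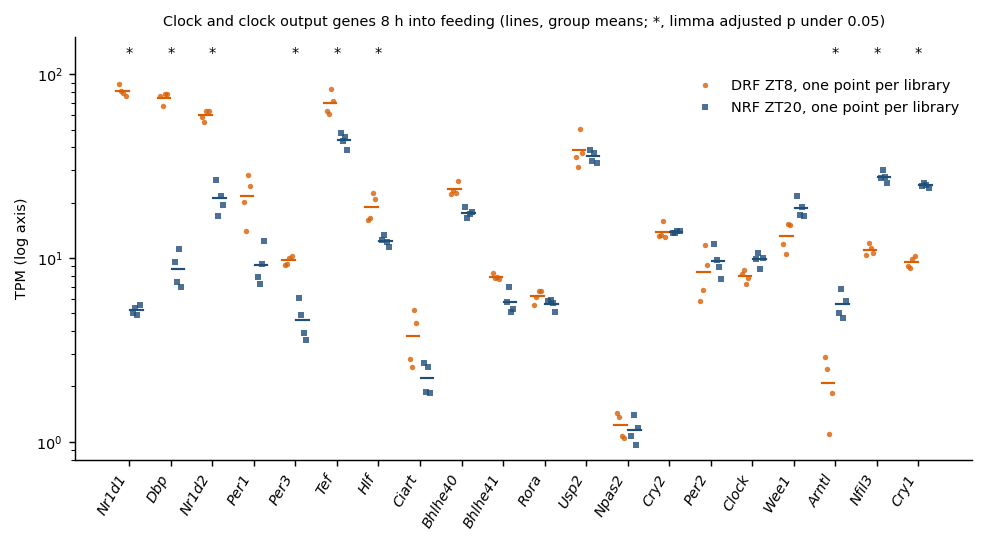
Level of the 20 clock and clock output genes in each library (TPM, log axis), ordered by difference. Orange circles are the 4 DRF ZT8 libraries, blue squares the 4 NRF ZT20 libraries, lines the group means, and stars the 9 genes with an adjusted p under 0.05. Nr1d1 and Dbp are far higher in DRF ZT8, and Cry1, Nfil3 and Arntl are lower in all 4 DRF ZT8 libraries.

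Promoter sequence was set beside these differences for the clock genes. RefSeq promoters (GRCm38.p6, 250 bases before to 50 after each start) were at hand for 17 of the 20 genes. They were searched on both strands for the E-box CACGTG bound by BMAL1 and CLOCK, the D-box TTATGTAA bound by DBP, TEF, HLF and NFIL3, and the half-site AGGTCA bound by REV-ERB and ROR, none of which contains another. E-boxes were found in 5 clock genes (Per1, Cry1, Bhlhe41, Ciart and Tef), D-boxes in Per3 alone, and half-sites in 5 (Arntl, Clock, Per1, Nr1d2 and Nfil3). The stretches upstream of the start that hold a match in a called clock gene are shown because these genes moved in both directions, with the matched letters in capitals.
Per3, chr4:151044810-151044876, minus strand: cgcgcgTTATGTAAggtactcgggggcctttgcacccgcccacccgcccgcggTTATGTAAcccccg
Cry1, chr10:85185082-85185141, minus strand: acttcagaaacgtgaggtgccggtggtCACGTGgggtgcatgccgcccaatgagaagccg
Tef, chr15:81802519-81802578, plus strand: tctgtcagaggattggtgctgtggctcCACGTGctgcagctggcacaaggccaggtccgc
Tef, chr15:81811249-81811308, plus strand: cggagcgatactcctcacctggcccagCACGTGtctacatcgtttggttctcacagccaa
Nr1d2, chr14:18239151-18239210, minus strand: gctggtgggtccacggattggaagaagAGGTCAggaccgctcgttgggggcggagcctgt
Nfil3, chr13:52981040-52981099, minus strand: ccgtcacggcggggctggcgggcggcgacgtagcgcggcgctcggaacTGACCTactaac
The Cry1 and Tef promoters both held an E-box although Cry1 fell and Tef rose, and Nr1d2 and Nfil3 likewise shared a half-site with opposite directions. No match was found in this window for Nr1d1 or Dbp.

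Over all promoters of this length, 7.15% held an E-box, 0.938% a D-box and 16.3% a half-site. Among tested genes with a promoter (9911), E-boxes stood at 11.6%, and at 16.4% of the 275 called higher and 11.6% of the 294 called lower. D-boxes stood at 0.686% of tested genes, at 1 of 275 called higher (0.364%, Per3) and at 10 of 294 called lower (3.40%). The 10 lower genes were Hdgf, Klhl9, Baz1b, Medag, Smim10l1, Myct1, Gzmm, Mmaa, Gm19522 and Ms4a7, named after their values were seen, with log2 differences from -1.03 (Gm19522) to -0.21 (Smim10l1). The half-site was at 15.0% of tested genes and at 15.6% and 13.3% of those higher and lower. These shares are descriptions of letters in a window and were not tested.

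Of 14 cold-inducible and heat shock genes 9 were called, 2 higher and 7 lower. The RNA-binding proteins Cirbp and Rbm3, which rise when body temperature falls, were higher in DRF ZT8, and the 7 lower genes encode chaperones, where 2.6% of all tested genes were higher and 2.94% lower, with a list median of -0.53 against -0.02 over all genes. Cirbp was at 49.4, 40.5, 45.1 and 42.2 TPM in the DRF ZT8 libraries and 18.3, 21.9, 21.2 and 16.7 TPM in the NRF ZT20 libraries. Every DRF ZT8 library was above every NRF ZT20 library, 2.27-fold on average (log2 difference 1.15 ± 0.18 SE, adjusted p = 7.73e-05). Rbm3 was at 34.1, 29.8, 29.05 and 27.5 TPM in the DRF ZT8 libraries and 18.5, 24.5, 16.5 and 16.4 TPM in the NRF ZT20 libraries, a difference of 0.65 ± 0.17 (SE, adjusted p = 0.0125).

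Hsp90aa1, an inducible cytosolic HSP90, was at 76.9, 70.9, 64.7 and 68.9 TPM in the DRF ZT8 libraries and 147, 141, 108 and 117 TPM in the NRF ZT20 libraries. The groups did not overlap, and the difference was -0.85 ± 0.21 (SE, adjusted p = 0.0113). Dnaja1, an HSP70 cochaperone, fell by 0.93 ± 0.22 on the log2 scale (adjusted p = 0.00655), and Hsph1, an HSP70 nucleotide exchange factor, by 0.80 ± 0.19 (adjusted p = 0.00612). The small heat shock protein Hspb1 averaged 408 ± 24.03 against 644 ± 43.8 TPM, and the constitutive HSP70 Hspa8 594 ± 29.5 against 895 ± 92.3 TPM (log2 differences -0.65, adjusted p = 0.0051, and -0.59, adjusted p = 0.0236). Hspe1 and Hspa4l were the other called members (-0.31 and -0.29). The stress-induced HSP70 genes Hspa1a and Hspa1b, near-identical copies, were low, at 0.850 to 3.04 TPM in DRF ZT8 and 2.16 to 8.48 TPM in NRF ZT20, and gave -0.70 and -0.69 without passing the test. Hsp90aa1 and Dnaja1 lost the call without NRF ZT20 replicate 1 (adjusted p = 0.0519 and 0.0585), and over all alternatives 4 to 9 members of the list were called.

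Of 20 fatty acid oxidation genes, none passed the limma test between food-matched hearts in either direction. With 5.54% of all tested genes called, 0 of 20 is near that share. The difference was positive for 16 and negative for 4, with log2 differences from -0.07 (Mlycd) to 0.24 (Ehhadh) and a median of 0.12 against -0.02 over all genes. In the alternative fits 0 to 2 were called, all higher in DRF ZT8. Cpt1a, the liver-type carnitine palmitoyltransferase that admits fatty acids to mitochondria, was at 25.5, 25.9, 24.9 and 25.8 TPM in the DRF ZT8 libraries and 23.2, 24.3, 22.99 and 22.5 TPM in the NRF ZT20 libraries. Every DRF ZT8 value was the higher, but the difference of 0.13 had a 95% interval of -0.22 to 0.48 and was not called (adjusted p = 0.729). That interval rests on the spread within all 14 groups. The SD of Cpt1a was 0.461 TPM in DRF ZT8 and 0.763 TPM in NRF ZT20, but 13.1 TPM in NRF ZT8. In fasting hearts Cpt1a was at 31.2, 53.3, 44.03 and 61.7 TPM in NRF ZT8 and 48.5, 40.3, 44.9 and 51.2 TPM in DRF ZT20, above all 8 fed libraries. Set against NRF ZT8, the fasting group of the same light phase, the same DRF ZT8 libraries gave -0.83 ± 0.17 (SE, limma adjusted p = 0.0162).

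Pdk4, the kinase that shuts pyruvate dehydrogenase in fasting, was at 55.2, 92.7, 59.8 and 54.7 TPM in the DRF ZT8 libraries and 67.9, 66.04, 78.6 and 75.97 TPM in the NRF ZT20 libraries. These overlapped, with a difference of -0.17 and a wide interval of -1.09 to 0.76. The interval again rests on the spread within all 14 groups. The SD of Pdk4 was 18.2 TPM in DRF ZT8 and 6.11 TPM in NRF ZT20, but 138 TPM in NRF ZT8 and 289 TPM in DRF ZT20. Pdk4 was higher in every fasting library, at 285, 421, 149 and 448 TPM in NRF ZT8 and 1445, 1593, 1134 and 958 TPM in DRF ZT20. DRF ZT8 minus NRF ZT8 was -2.21 ± 0.46 (limma adjusted p = 0.015). Ucp3, a mitochondrial carrier induced with fat use, averaged 20.5 ± 4.61 and 17.9 ± 2.87 TPM in the fed groups (interval -0.70 to 1.04), and 68.7 ± 33.7 and 97.8 ± 17.03 TPM in the fasting groups. Cpt1a, Pdk4 and Ucp3 were named outside the selection rule, after earlier results on them were known.

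Of 18 PPAR target and lipid handling genes, 1 was lower and none higher, a share near the 5.54% of all tested genes, and the median was -0.09. Over the alternatives 0 to 6 were called, and with only the libraries of the groups compared 3 were higher and 3 lower. Fabp4, a fatty acid carrier of capillary endothelium and fat cells, averaged 336 ± 36.01 against 468 ± 51.01 TPM (-0.47 ± 0.14 SE, adjusted p = 0.0407), beside the lower endothelial marker sum given above. Its call was lost in 6 of the 8 fits that left out 1 library, all but those without DRF ZT8 replicate 4 and NRF ZT20 replicate 4, with adjusted p up to 0.14 without DRF ZT8 replicate 3.

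DRF ZT8 and NRF ZT8, hearts of the same light phase that differ in feeding, differed in 54 genes by limma (0.389% of 13878), 13 higher (0.0937%) and 41 lower (0.295%), and 2062 genes had an unadjusted p under 0.05. This comparison shares the DRF ZT8 libraries with the food-matched one, so the values only stand side by side. Of 20 fatty acid oxidation genes 2 were called in it (Cpt1a and Mlycd, both lower in DRF ZT8). Of the 20 clock and clock output genes 0 were, a share near the 0.389% of all tested genes. Nr1d1 gave -0.49, Dbp -0.21, Cry1 0.30 and Arntl -0.10 in it, none called. The NRF ZT8 libraries spread widely in these genes, at 53.7 to 169 TPM for Nr1d1, 20 to 157 for Dbp, 5.41 to 13.1 for Cry1 and 0.879 to 5.96 for Arntl. This comparison was not refitted under the alternatives. The largest rise was Cyp1a1 (4.19, adjusted p = 0.000158).

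Ion channel and calcium handling genes were called only as higher in DRF ZT8, 4 of 20 (Slc8a1, Kcnd2, Kcnq1 and Kcnh2) where 2.6% of all tested genes were higher, with 3 to 6 called over the alternatives, and 18 of 20 had a positive difference, with a median of 0.19. Slc8a1, the sodium-calcium exchanger, was at 128, 123, 127 and 128 TPM in the DRF ZT8 libraries and 79.3, 87.5, 64.7 and 85.5 TPM in the NRF ZT20 libraries. The DRF ZT8 values fell within 5 TPM of each other and above all NRF ZT20 values (1.59-fold, 0.68 ± 0.12 SE, adjusted p = 0.000474). Kcnd2, which encodes the Kv4.2 subunit of the transient outward current, was at 8.93, 7.93, 10.4 and 7.92 TPM in the DRF ZT8 libraries and 5.92, 5.56, 4.82 and 5.73 TPM in the NRF ZT20 libraries, a difference of 0.59 ± 0.12 (SE, adjusted p = 0.00182). Kcnq1 and Kcnh2 encode the channels of the slow and rapid delayed rectifier currents. Kcnq1 averaged 27.7 ± 0.771 against 19.5 ± 0.552 TPM (0.48 ± 0.11 SE, adjusted p = 0.00645), and Kcnh2 49.4 ± 6.31 against 37.1 ± 2.78 TPM (0.40 ± 0.12 SE, adjusted p = 0.0474). The Kcnh2 call was lost in each of the 8 fits without 1 library, with adjusted p up to 0.191 without DRF ZT8 replicate 3. Kcnip2, the subunit that pairs with Kv4.2, averaged 105 and 104 TPM without a call.

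In adrenergic signaling (12 tested) Grk5, a kinase that desensitizes β-adrenergic receptors, was lower (-0.47 ± 0.11 SE, adjusted p = 0.00729) and Camk2d, the main cardiac CaM kinase II gene, higher (0.28 ± 0.08 SE, adjusted p = 0.0203), where 2.94% of all tested genes were lower and 2.6% higher. The Camk2d call was lost without DRF ZT8 replicate 2, NRF ZT20 replicate 3 or NRF ZT20 replicate 4 (adjusted p = 0.0555, 0.0722 and 0.0555). In the sarcomere list (12 tested) Mybpc3, cardiac myosin-binding protein C, was the only call (0.34 ± 0.10 SE, adjusted p = 0.0393), near the 5.54% of all tested genes, with 0 to 3 over the alternatives, and it was lost in 7 of the 8 fits without 1 library (adjusted p up to 0.117 without NRF ZT20 replicate 3), holding only without NRF ZT20 replicate 2.

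Glucocorticoid-responsive genes were called only as lower in DRF ZT8, 3 of 13 (Fkbp5, Mt1 and Mt2) where 2.94% of all tested genes were lower, with 0 to 4 called over the alternatives and with a median of -0.17. Fkbp5, a chaperone induced by the glucocorticoid receptor, was at 2.23, 2.84, 9.56 and 4.27 TPM in the DRF ZT8 libraries and 8.82, 10.3, 13.8 and 6.13 TPM in the NRF ZT20 libraries. DRF ZT8 replicate 3 lay among the NRF ZT20 values, so the groups overlapped, and the difference of -1.02 ± 0.26 (SE, adjusted p = 0.013) was lost without DRF ZT8 replicate 1 or 2 or NRF ZT20 replicate 3 (adjusted p = 0.0917, 0.0689 and 0.0744). The metallothionein Mt1 averaged 154 ± 21.4 against 223 ± 27.8 TPM (-0.53 ± 0.15 SE, adjusted p = 0.0245), a call lost without DRF ZT8 replicate 1 or 2 or NRF ZT20 replicate 1 or 3 (adjusted p up to 0.107 without DRF ZT8 replicate 1). Its paralog Mt2 rested on a mean of 10 and 27.2 reads per library and is uncertain, with its call lost in 5 of 8 fits without 1 library (adjusted p up to 0.184 without DRF ZT8 replicate 1).

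Among immediate early genes (11 tested) 3 were lower, where 2.94% of all tested genes were, and none higher, with 1 to 3 called over the alternatives and a median of -0.44. Atf3, a stress-induced transcription factor, was at 3.299, 3.46, 3.73 and 3.63 TPM in the DRF ZT8 libraries and 7.97, 8.17, 8.14 and 11.01 TPM in the NRF ZT20 libraries, a difference of -1.11 ± 0.28 (SE, adjusted p = 0.014). Ier3, an early survival factor, averaged 50.9 ± 7.899 against 82.7 ± 17.01 TPM (-0.68 ± 0.17 SE, adjusted p = 0.00894), and its call was lost without DRF ZT8 replicate 2 or NRF ZT20 replicate 1 (adjusted p = 0.0558 and 0.0672). The zinc finger factor Egr3 was near 1 to 3 TPM (-0.61 ± 0.18 SE, adjusted p = 0.0355) and lost its call in 6 of 8 such fits, all but those without NRF ZT20 replicate 1 or 3 (adjusted p up to 0.114 without NRF ZT20 replicate 2). Of 9 Krüppel-like factors Klf4 and Klf3 were lower, where 2.94% of all tested genes were, and 1 to 4 were called over the alternatives, with up to 2 of them higher. Klf4, a factor of vessel wall cells, was at 27.8, 29.2, 35.3 and 38.1 TPM in the DRF ZT8 libraries and 61.8, 58.2, 51.9 and 48.6 TPM in the NRF ZT20 libraries, without overlap (-0.75 ± 0.16 SE, adjusted p = 0.00272), beside the lower endothelial sum. Klf3, a repressor, differed by -0.32 ± 0.09 (SE, adjusted p = 0.0316) and held, among the 8 fits without 1 library, only in those without DRF ZT8 replicate 3 or 4 or NRF ZT20 replicate 4 (adjusted p up to 0.142 without DRF ZT8 replicate 1). In the insulin and FOXO list (17 tested) Cdkn1a, the p21 cell cycle inhibitor, was lower at 11.8 ± 1.81 against 23.8 ± 3.27 TPM (-0.95 ± 0.20 SE, adjusted p = 0.0024), where 2.94% of all tested genes were lower and 2.6% higher. Sesn1, a stress-induced inhibitor of mTORC1, was slightly higher (0.34 ± 0.10 SE, adjusted p = 0.0394) and held, among the 8 fits without 1 library, only in that without NRF ZT20 replicate 1 (adjusted p up to 0.133 without NRF ZT20 replicate 2).

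Other metabolic lists held few calls. In lipogenesis 1 of 16 was called, near the 5.54% of all tested genes, with 0 to 3 over the alternatives. It was Scd4, a heart stearoyl-CoA desaturase at 8.57, 8.47, 5.12 and 7.04 TPM in the DRF ZT8 libraries and 1.77, 3.12, 3.02 and 2.88 TPM in the NRF ZT20 libraries (1.16 ± 0.32 SE, adjusted p = 0.0239), which was lost without DRF ZT8 replicate 1 or 2 or NRF ZT20 replicate 1 (adjusted p up to 0.0974 without NRF ZT20 replicate 1). Scd4 is a close paralog of Scd1, which averaged 80.9 and 50.7 TPM without a call (0.70, adjusted p = 0.6), so reads could be divided between them. The cholesterol list had 3 of 17 higher (2.6% of all tested genes were, and 0 to 5 members were called over the alternatives), the synthesis enzymes Mvd, Nsdhl and Fdft1, by 0.41, 0.31 and 0.27 (adjusted p = 0.0283, 0.0322 and 0.0389). Each of these lost its call in 6 to 8 of the 8 fits without 1 library, with adjusted p up to 0.131 without NRF ZT20 replicate 1 (Nsdhl).

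Of 18 glucose use genes, Pygb, the brain-type glycogen phosphorylase, was higher (386 ± 14.4 against 318 ± 5.08 TPM, 0.28 ± 0.07 SE, adjusted p = 0.0164), and so was Pdp2, which reactivates pyruvate dehydrogenase (0.48 ± 0.14 SE, adjusted p = 0.0384), where 2.6% of all tested genes were higher. Over the alternatives 0 to 5 of the list were called, with 5 higher after scaling without the mitochondrially encoded genes. Pygb was lost without DRF ZT8 replicate 1 or 3 (adjusted p = 0.0528 and 0.056), and Pdp2 held, among the 8 fits without 1 library, only in that without DRF ZT8 replicate 4 (adjusted p up to 0.133 without DRF ZT8 replicate 3). In the NAD list (11 tested, 5.54% of all tested genes called) Nmnat3, a mitochondrial NAD synthesis enzyme, was higher without overlap (0.36 ± 0.07 SE, adjusted p = 0.000433), Parp1, an NAD-consuming DNA damage sensor, was slightly higher (0.22 ± 0.07 SE, adjusted p = 0.0459), and Nampt, the rate-limiting enzyme of NAD salvage and a clock-controlled gene, lower (73.3 ± 6.597 against 94.1 ± 6.299 TPM, -0.36 ± 0.10 SE, adjusted p = 0.0259). Parp1 was lost in 6 of the 8 fits without 1 library (adjusted p up to 0.16 without NRF ZT20 replicate 3). Nampt held, among the 8 fits without 1 library, only in those without DRF ZT8 replicate 3 or NRF ZT20 replicate 2 or 4, and was not called after scaling without the mitochondrially encoded genes (adjusted p = 0.107). Ppm1k, the phosphatase that activates branched-chain amino acid oxidation, was the single call of 14 in its list (0.40 ± 0.11 SE, adjusted p = 0.0166), near the 5.54% of all tested genes, and was lost without DRF ZT8 replicate 3 or NRF ZT20 replicate 2 or 3 (adjusted p up to 0.0689 without DRF ZT8 replicate 3). Wipi1, an autophagosome protein, was higher (0.33 ± 0.08 SE, adjusted p = 0.00663) and Tfeb, a regulator of lysosome genes, lower (-0.32 ± 0.08 SE, adjusted p = 0.0143) among 15 autophagy genes, where 2.6% of all tested genes were higher and 2.94% lower, Tfeb being lost without DRF ZT8 replicate 2 or NRF ZT20 replicate 2 or 3 (adjusted p up to 0.066 without DRF ZT8 replicate 2).

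The nuclear respiratory chain list had 5 of 78 called, near the 5.54% of all tested genes. All 5 were lower and none higher (2.94% of all genes were lower), with 69 negative differences and a median of -0.13 in the list. Ndufb2, a complex I subunit, was at 6.82, 6.85, 7.01 and 7.42 TPM in the DRF ZT8 libraries and 9.73, 10.3, 11.2 and 9.602 TPM in the NRF ZT20 libraries, without overlap (-0.48 ± 0.12 SE, adjusted p = 0.00815). Ndufa1 and Ndufb3 of complex I, Uqcrq of complex III and Atp5k of ATP synthase were the others, at -0.38, -0.25, -0.31 and -0.43, and Ndufa1, Uqcrq and Atp5k lost their calls in 5 to 6 of the 8 fits without 1 library. Mitochondrially encoded subunits had a median of 0.21 with 0 of 13 called. Over the alternatives 1 to 8 nuclear members were called, all lower, and the nuclear median was between -0.16 and -0.06. Scaling without the mitochondrially encoded genes left 2 calls, Ndufb2 and Atp5k, where 1040 of all 13878 tested genes were called. Ndufb3 lost its call there, as did Ndufa1 and Uqcrq at limma adjusted p = 0.0715 and 0.0607. The part of the larger mitochondrial read share of DRF ZT8 in these medians was not tested. Cytosolic ribosomal proteins gave 2 of 80 called (5.54% of all tested genes were), Rps4l, a copy of the Rps4x gene, higher (0.42) and Rpl13a lower (-0.42), and both are uncertain because related copies can share reads. Without 1 library Rps4l lost its call in 7 of 8 fits (adjusted p up to 0.19 without DRF ZT8 replicate 1) and Rpl13a in 6 (adjusted p up to 0.104 without DRF ZT8 replicate 1). The ER chaperone list had 1 of 17 called, near the share of all tested genes, with 0 to 5 over the alternatives, all lower. It was Atf4, the effector of the integrated stress response (-0.36 ± 0.11 SE, adjusted p = 0.0444), which held, among the 8 fits without 1 library, only in that without NRF ZT20 replicate 4 (adjusted p up to 0.146 without NRF ZT20 replicate 1). The collagen list had 1 of 16 called, also near that share and with 0 to 1 over the alternatives. It was Lox, a collagen crosslinking enzyme (-0.50 ± 0.14 SE, adjusted p = 0.0277), lost without DRF ZT8 replicate 1 or 2 or NRF ZT20 replicate 2 or 3 (adjusted p up to 0.102 without DRF ZT8 replicate 2). No member was called by limma in the lists of amino acid response (12 tested), NRF2 targets (10), iron handling (9), DNA replication (15), tRNA synthetases (20), mitochondrial ribosomal proteins (77) or proteasome subunits (38). Counts in the alternative fits reached at most 3 in these lists and 0 for the proteasome. Over the same alternatives 1 to 3 members were called in adrenergic signaling, 1 to 5 in the insulin and FOXO list, 1 to 5 in the NAD list, 0 to 2 in the branched-chain amino acid list and 1 to 2 in autophagy.

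**Figure D3:**
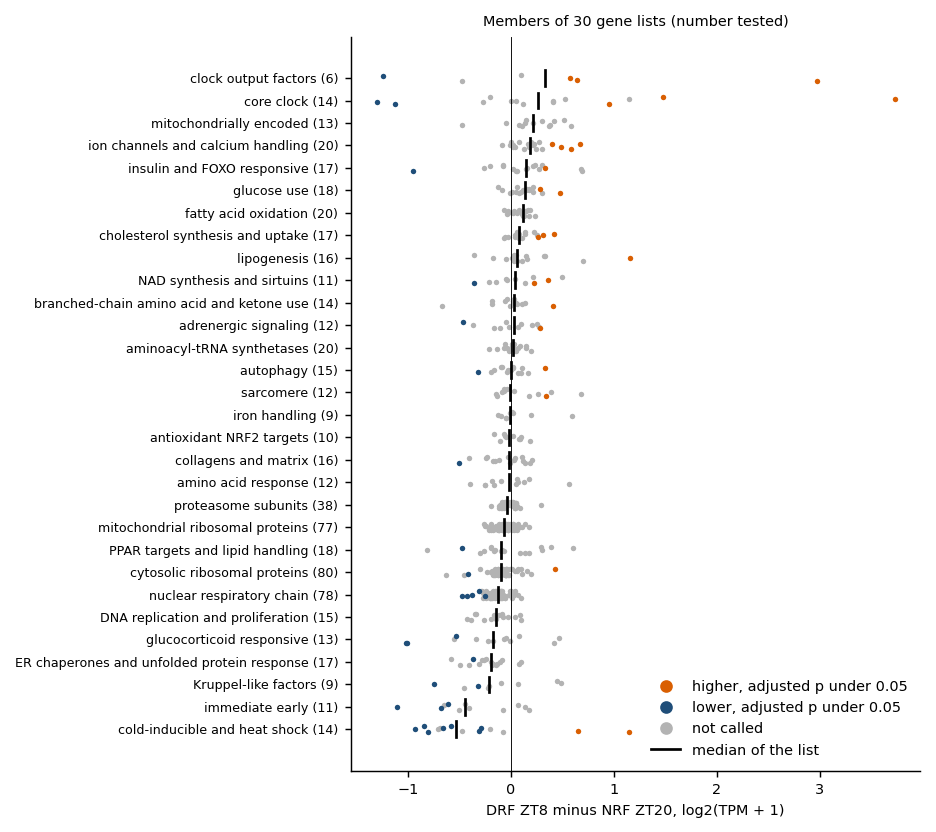
Difference DRF ZT8 minus NRF ZT20 (log2(TPM + 1), x axis) of every tested member of 30 gene lists, with the number tested in brackets and the lists ordered by median (black bars). Orange and blue points are genes called higher and lower, grey points were not called. Clock and clock output genes spread widest, the cold-inducible and heat shock list has the lowest median at -0.53, and all 20 fatty acid oxidation genes are grey and close to zero.

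Of the genes with the largest differences outside these lists, Cyp1a1 varied widely within groups. It was at 48.6, 38.7, 123 and 35.1 TPM in the DRF ZT8 libraries and 4.45, 3.36, 13.9 and 4.89 TPM in the NRF ZT20 libraries. All DRF ZT8 libraries were above all NRF ZT20 libraries (3.01 ± 0.63 SE, adjusted p = 0.00247), yet replicate 3 was the highest of its group in both, at more than 2-fold the next. Snai3, a zinc finger transcription factor, was at 12.4, 10.04, 11.2 and 10.1 TPM in the DRF ZT8 libraries and 2.13, 3.65, 4.899 and 2.56 TPM in the NRF ZT20 libraries, 3.298-fold higher without overlap (1.51 ± 0.26 SE, adjusted p = 0.000201). Pla2g4e, a cytosolic phospholipase, and the long noncoding RNA Gm19277 rose by 1.03 and 1.19 (adjusted p = 2.27e-06 and 0.000563). The antisense RNA Gm29417, near 1 to 3 TPM, rose by 1.02 (adjusted p = 0.00104), and its reads cannot be told from those of the opposite strand.

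Among the falls, 2210407C18Rik, an uncharacterized protein-coding gene, was at 5.08, 9.74, 6.8997 and 7.35 TPM in the DRF ZT8 libraries and 26.5, 18.7, 27.3 and 23.7 TPM in the NRF ZT20 libraries (-1.61 ± 0.29 SE, adjusted p = 0.000412). Fam124b was at 0.952, 0.912, 0.277 and 0.603 TPM in the DRF ZT8 libraries and 4.34, 4.12, 3.24 and 3.04 TPM in the NRF ZT20 libraries, a 5.37-fold higher level in NRF ZT20 (-1.49 ± 0.21 SE, adjusted p = 6.44e-06). Angptl7, a secreted angiopoietin-like protein, averaged 15.3 ± 4.64 against 40.1 ± 5.97 TPM (-1.36 ± 0.29 SE, adjusted p = 0.00306). Lonrf3 and the RAS-related Rasl10a fell by 1.22 and 1.17 without overlap (adjusted p = 1.15e-06 and 0.000189), and Rtn4r, the Nogo receptor, by 1.27 (adjusted p = 0.0146, 0.0588 without NRF ZT20 replicate 1). The small nuclear RNA Gm25047 (-1.58 ± 0.50 SE, adjusted p = 0.0488) was lost in 7 of 8 fits without 1 library, all but that without DRF ZT8 replicate 1 (adjusted p up to 0.149 without NRF ZT20 replicate 1), and the pseudogene Rpl26-ps6 (-1.27) may share reads with Rpl26.

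The light-dark difference was then set beside other pairs matched for feeding. Both set a light against a dark group and share no library with DRF ZT8 and NRF ZT20. NRF ZT8 and DRF ZT20 were both 8 h into the daily fast, and DRF ZT4 and NRF ZT16 both 4 h into feeding. Regimen and light phase differed together here too, the same way round in the 4 h pair and with NRF in the light in the fasting pair. By limma 3342 genes differed in the fasting pair (24.1%), 2905 higher (20.9%) and 437 lower (3.15%) in the light, and 894 in the 4 h pair (6.44%), 413 higher (2.98%) and 481 lower (3.47%). The split of the fasting pair rested on the scaling. Its median over all genes was 0.12, and with median-of-ratios scaling, where that median was 0.0046, 1337 genes were higher and 1368 lower, and without the mitochondrially encoded genes 929 and 956. Of the 769 genes called 8 h into feeding, 553 (71.9%) had the same sign in the fasting pair, against 51.6% of all tested genes, and 256 were also called there with that sign (33.3% of the 769 and 7.66% of the 3342 called in fasting), while 30 were called with the opposite sign. In the 4 h pair 615 (80.0%) had the same sign, against 58.8% of all genes, and 189 were called with it (24.6% of the 769 and 21.1% of 894) and 14 with the opposite sign. In all 3 pairs 97 genes were called in the same direction. Across all tested genes the differences of the fed pair correlated with those of the fasting pair at a Pearson r of 0.255 and with those of the 4 h pair at 0.230, a description over genes, which are not independent replicates.

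The 9 clock and clock output genes called 8 h into feeding had the same sign 8 h into fasting. NRF ZT8 minus DRF ZT20 was 3.51 for Nr1d1, 3.30 for Dbp, -1.07 for Cry1, -1.12 for Nfil3 and -1.27 for Arntl, all called with the sign seen in fed hearts (limma adjusted p from 1.39e-12 to 0.000974). The difference between the pairs was called in 2 of 14 core clock genes, Rora and Bhlhe41, and in 0 of 6 output genes, a share near the 9.71% of all tested genes. For Bhlhe41, a repressor of the clock, the light-dark difference was 0.40 in fed and 1.201 in fasting hearts (difference -0.80, adjusted p = 0.0125). Of the 14 cold-inducible and heat shock genes the difference between the pairs was called in 2, where 9.71% of all tested genes were. Cirbp and Rbm3 gave 0.88 and 0.81 in fasting, beside 1.15 and 0.65 in feeding, and neither difference between the pairs was called (limma adjusted p = 0.535 and 0.686). Among chaperones, Dnaja1 gave 0.18 in fasting and -0.93 in feeding (difference -1.11, adjusted p = 0.021). Hspa8 and Hspb1 gave -0.17 and -0.20 in fasting, and their differences between the pairs were not called (adjusted p = 0.236 and 0.154).

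Over all genes the light minus dark difference was not the same in feeding and fasting for 1347 genes by limma (9.71%), with a signed value (fed pair minus fasting pair) above zero for 145 (1.04%) and below zero for 1202 (8.66%). The median over all genes was -0.14, and it moved to -0.01 with median-of-ratios scaling, which called 950 genes (478 above zero, 472 below), and to 0.04 with scaling without the mitochondrially encoded genes, which called 524 (361 above, 163 below). The excess below zero was not seen under either scaling. The count was 453 without NRF ZT8 replicate 4, 617 without DRF ZT20 replicate 1, 684 without DRF ZT8 replicate 3, 707 without DRF ZT8 replicate 2, 732 without NRF ZT20 replicate 2 and 757 without NRF ZT20 replicate 1. Collagen and matrix genes were among them. Of 16, 14 were higher and 1 lower in NRF ZT8 than in DRF ZT20, where 20.9% of all tested genes were higher and 3.15% lower. The median was 0.80, where the fed pair had a median of -0.02 and 1 lower gene, and the difference was called in 12. In the pair 4 h into feeding 8 of the 16 were higher and 0 lower in the light, where 2.98% and 3.47% of all tested genes were.

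Against 4 h into feeding, 185 genes differed (1.33%), with the signed value (8 h minus 4 h) above zero for 107 (0.771%) and below zero for 78 (0.562%), and clock genes were among them, with 9 of 14 core clock and 3 of 6 output genes called. Arntl was lower by 1.12 in the light at 8 h but higher by 1.501 in the light at 4 h (difference -2.62, adjusted p = 1.79e-06). Per3 was higher by 0.95 at 8 h and gave -1.15 at 4 h (adjusted p = 1.79e-06), and Tef 0.65 and -0.99 (adjusted p = 1.48e-05). Cry1 gave -1.301 and -1.254, and the difference between these was not called (adjusted p = 0.956). Cyp1a1 gave 3.01 at 8 h and -2.90 at 4 h (difference 5.92, adjusted p = 5.6e-05). The 4 h groups overlapped for Cyp1a1, at 0.687 to 7.44 TPM in DRF ZT4 and 4.28 to 165 TPM in NRF ZT16. In the DRF ZT4 group Dbp ranged from 17.6 to 119 TPM between libraries, and in NRF ZT8 from 20 to 157 TPM, against 67.0 to 77.9 TPM in DRF ZT8. Scaling without the mitochondrially encoded genes gave 258, of which 180 were above zero, against 107 of 185. With limma voom the balance turned, at 178 above zero and 283 below of 461. The 185 became 402 without DRF ZT4 replicate 1, 90 without DRF ZT8 replicate 3, 96 without NRF ZT16 replicate 2, 106 without DRF ZT4 replicate 3 and 115 without NRF ZT20 replicate 2.

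**Figure D4:**
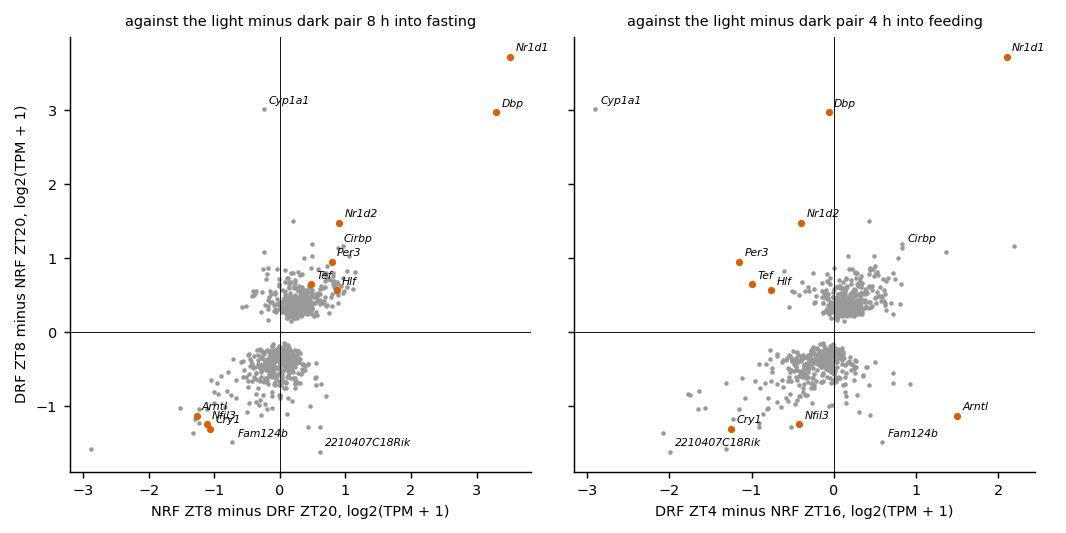
Genes called between DRF ZT8 and NRF ZT20 (769 points), with that difference on both y axes and, on the x axes, the light minus dark difference of the pair 8 h into fasting (left) and 4 h into feeding (right), all in log2(TPM + 1). Orange points are clock and clock output genes. They lie in the same quadrants as in fasting, but Arntl, Per3, Tef, Hlf and Nr1d2 have the opposite sign 4 h into feeding, and Dbp lies near zero there.

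**Figure D5:**
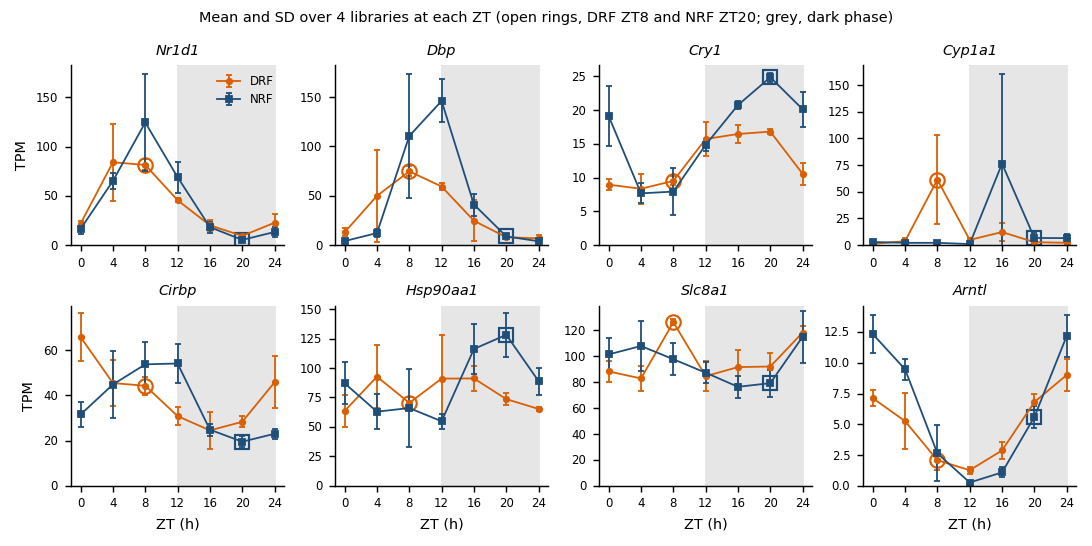
TPM (y axis) against ZT in hours (x axis) of 8 genes under DRF (orange) and NRF (blue), as the mean and SD of 4 libraries, with the dark phase in grey. Open rings and squares mark DRF ZT8 and NRF ZT20. Nr1d1 is at 81.4 TPM in DRF ZT8 and 5.23 TPM in NRF ZT20, and Cyp1a1 peaks 8 h into feeding under DRF and at ZT16 under NRF.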

How the data were processed

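Poly(A) RNA of mouse hearts was made into unstranded libraries and sequenced in paired reads. The submitters' processing notes name HISAT2 2.0.5, featureCounts 1.5.0-p3 and the mm10 build. The annotation and the strand setting were not given in the sources used here. The deposited values, which the authors call TPM, were not linear TPM but a scaled log2 of (1 + scaled read count) divided by exon length, with the scale set per library. Whole reads were therefore recovered from them with GENCODE M21 exon lengths (21984 of 22864 genes) or, where no annotated length fitted, a searched length (859 genes) or a length for 20 abundant genes, and 1 gene, Atp5a1, was left out. Of 1192403 values under the read limit, 100% came within the tolerance of 0.1 read of a whole number. No 2 libraries held identical values.

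Linear TPM were computed from these reads, and genes whose mean across all 56 libraries reached 1 TPM were tested as log2(TPM + 1), a scale that understates changes of low genes. limma 3.58.1 (R 4.3.3) fitted 14 group means to all libraries with a mean-variance trend, and p-values were Benjamini-Hochberg adjusted over all tested genes, with calls at an adjusted p under 0.05. Library measures were compared by exact permutation. The test was checked on simulated data. Other software was Python 3.11.15, numpy 2.4.6, scipy 1.17.1, pandas 2.3.3 and matplotlib 3.10.9. Named were the 10 largest rises and falls among called genes whose groups did not overlap, all tested clock and clock output genes, and up to 4 called members of every other list. Some genes are not reported here and were left out of the lists and the named genes, but not of the fit or the counts over all genes. The groups, gene lists and tests were chosen with earlier results of these data known. Alternatives were another pseudocount, other filters and scalings, the deposited values times length, limma voom on the recovered reads, a replicate block, a fit on the compared groups alone and leaving out each library. The libraries compared held 34.6 to 45.8 M recovered reads. Counting error was not compared with library spread and weighs most on genes with few reads. Short genes can have few reads well above 1 TPM, as Gm25047 did at 7.75 TPM and a mean of 13 reads in NRF ZT20.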

Additional observations from a re-analysis of the deposited data

Results flagged for a closer look

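The light minus dark difference of 21 named genes was not the same 8 h into feeding as 8 h into fasting (limma test of the difference of differences, adjusted p from 0.000549 to 0.0483), among 1347 such genes in all. The signed difference between the pairs, fed minus fasting on the log2 scale, was above zero for Cyp1a1 (3.26), Snai3 (1.30), Rora (0.48), Pdp2 (0.64), Sesn1 (0.92), Slc8a1 (0.59) and Ppm1k (0.56). It was below zero for 2210407C18Rik (-2.22), Rtn4r (-1.89), Rpl26-ps6 (-1.71), Bhlhe41 (-0.80), Dnaja1 (-1.11), Atf4 (-0.67), Atf3 (-1.21), Ier3 (-0.90), Egr3 (-0.77), Tfeb (-0.52), Ndufb2 (-0.65), Atp5k (-0.64), Ndufa1 (-0.53) and Uqcrq (-0.51). The sign does not say in which pair the light-dark difference was larger in size. The median over all genes was also below zero, at -0.14, and with median-of-ratios scaling, where it was -0.01, 478 genes were above zero and 472 below.

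Between 8 h and 4 h into feeding the light minus dark difference changed for 20 named genes (limma, adjusted p from 1.79e-06 to 0.0434), among 185 in all. The signed difference, 8 h minus 4 h, was above zero for Nr1d1 (1.62), Cyp1a1 (5.92), Dbp (3.04), Nr1d2 (1.88), Pla2g4e (0.86), Per1 (2.27), Per2 (2.05), Per3 (2.10), Rora (0.58), Tef (1.64), Hlf (1.34), Sesn1 (0.88) and Ppm1k (0.63). It was below zero for Fam124b (-2.07), Arntl (-2.62), Clock (-0.60), Npas2 (-1.29), Cdkn1a (-1.11), Grk5 (-0.87) and Atp5k (-0.64). Clock and clock output genes make up 12 of these 20, where all 20 clock genes were among the 75 named genes by the naming rule, with Arntl, Clock and Npas2 below zero and the Per, Nr1d and PAR-domain genes and Rora above it.

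One library stood apart from the other 3 of its group in 11 of 180 groups of 4 examined by Dixon's ratio, where chance alone gives about 1 in 20. The low values were Dbp at 67.0 TPM in DRF ZT8 replicate 2, Mt2 at 0.111 TPM and Egr3 at 0.888 TPM in DRF ZT8 replicate 1, Scd4 at 1.77 TPM in NRF ZT20 replicate 1 and the pseudogene Rpl26-ps6 at 1.72 TPM in NRF ZT20 replicate 4. The high values were Cry2 at 15.9 TPM in DRF ZT8 replicate 3 and Atf3 at 11.01 TPM in NRF ZT20 replicate 4. NRF ZT20 replicate 2 had 40.6 M reads, the most of its group. NRF ZT20 replicate 3 had the lowest summed atrial markers (484 TPM) and fibroblast markers (563 TPM), and DRF ZT8 replicate 2 the highest erythroid sum of its group (26550.0 TPM).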

How the results depend on the processing

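The 769 calls between DRF ZT8 and NRF ZT20 became 1439 with median-of-ratios scaling, 1380 with limma voom and 1373 with only the libraries of the groups compared, and 394 to 656 when 1 library was left out. The 1347 genes whose light difference was not the same in feeding and fasting became 524 with scaling without mitochondrially encoded genes and 666 with deposited values times length (381 of them above zero), and 453 to 1805 without 1 library. The 185 genes of the 8 h against 4 h comparison became 451 with median-of-ratios scaling, 312 with deposited values times length and 461 with voom, and 90 to 402 without 1 library. The 3342 genes of the fasting pair became 1885 with scaling without mitochondrially encoded genes and the 894 of the 4 h pair 1458 with median-of-ratios scaling, settings chosen for these pairs after seeing the data. The cause of these shifts was not tested, apart from the fewer libraries of the reduced fits. With replicate number as a block, 778 genes were called in place of 769, 1400 in place of 1347 and 201 in place of 185. Replicate numbers did not pair the libraries, since same-numbered deviations correlated at -0.044, -0.103, 0.075 and -0.063 and 0 of 8 libraries correlated best with its own number. Of 64 called named genes, 30 kept their call in each of the 17 alternatives that tested them, 34 lost it at least once and 0 changed direction. Among uncalled genes near zero Cry2 changed sign, to 0.0107 (median-of-ratios), 0.0612 (without mitochondrially encoded genes) and 0.0164 (deposited values), and ranged from -0.0648 to 0.0278 without 1 library, above zero without DRF ZT8 replicate 1, 2 or 4 or NRF ZT20 replicate 3 or 4, and Usp2 ranged from -0.0386 (without DRF ZT8 replicate 3) to 0.186. The difference in erythroid sum ranged from -9523 to 3965 TPM without 1 library, turning sign without NRF ZT20 replicate 4. Depth limits genes with few reads, among them Gm25047 and Rpl26-ps6, at means of 13 and 22.25 reads in NRF ZT20.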

Other observations

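Further called genes with known roles in the heart lay outside the lists and the naming rule, and were chosen after their values were seen. P4ha1, a collagen prolyl hydroxylase induced by hypoxia, averaged 27.5 ± 2.26 TPM (SD, n = 4) in DRF ZT8 and 55.2 ± 8.11 TPM in NRF ZT20, a log2 difference of -0.97 ± 0.17 (SE, adjusted p = 0.000399) by limma. Egln3, the prolyl hydroxylase PHD3 that marks HIF for degradation, averaged 74.2 ± 6.796 and 141 ± 10.6 TPM (-0.92 ± 0.18 SE, adjusted p = 0.000906). G0s2, an inhibitor of the triglyceride lipase ATGL, was also lower, at 126 ± 17.3 against 259.7 ± 70.4 TPM (-0.997 ± 0.26 SE, adjusted p = 0.0165).

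Cldn5, the tight junction protein of endothelium, averaged 50.4 ± 8.61 against 100.4 ± 12.1 TPM (-0.99 ± 0.19 SE, adjusted p = 0.000787), beside summed endothelial markers that were lower in the same libraries. The interferon-stimulated gene Isg15 differed by -0.86 ± 0.24 (SE, adjusted p = 0.0224). Higher in DRF ZT8 were Agtr1a, the angiotensin II type 1a receptor (31.99 ± 0.612 against 16.8 ± 2.14 TPM, 0.89 ± 0.15 SE, adjusted p = 0.000194) and Myom2, an M-band protein of the sarcomere (231 ± 14.97 against 141 ± 18.7 TPM, 0.72 ± 0.14 SE, adjusted p = 0.000984). These 7 genes describe single differences, and no list was tested with them.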
